A study of Mus musculus with 18 samples.

Results

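Sox10, Cdh19, S100b, Mbp, Pmp22, Prx, Mag and Ncmap are genes of Schwann cells and of the myelin they make. All 8 were found by symbol among the 55453 genes of both count tables of mouse aorta, and they were followed library by library and between genotypes. The libraries are poly(A) bulk RNA-seq of single aortae cleaned of the fat and connective tissue around them. In the HDR experiment, neighbouring bases of the CArG box of the Tspan2 promoter, the element that serum response factor binds, had been swapped with Cas9, an sgRNA and a single-stranded template, and 5 homozygous Tspan2 sg/sg aortae were set against 5 wild-type aortae. These mice were labelled C57BL/6 and were 12 weeks old, with 3 females and 2 males of each genotype. In the PE2 experiment, prime editor 2, a Cas9 nickase joined to a reverse transcriptase, had changed a single base of the same CArG box, and 4 Tspan2 peg/peg aortae were set against 4 wild-type aortae. These mice were labelled FVB/N/B6(Cg)-Tyrc-2J/J and were 8 weeks old, all 4 peg/peg mice being female and 3 of the 4 wild-type mice. The edits are carried in the germline and thus by every cell of the mutants, Schwann cells included.

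Schwann cells are the glia of peripheral nerve. They arise from the neural crest under the transcription factor Sox10, and either wrap a large axon in compact myelin or hold bundles of thin axons without myelin. The aortic wall itself is built of smooth muscle, endothelium and fibroblasts, while the nerves that reach it, mostly sympathetic, run in the adventitia and in the tissue around it. In bulk samples, fewer Schwann cells and less RNA per cell cannot be told apart.

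Depth was 17290992 to 24880385 counts per HDR library and 38820265 to 44895615 per PE2 library. Levels are counts-per-million (CPM) values after TMM scaling, which corrects for library composition. Tspan2 was at 112 to 265 CPM in wild-type and 16.0 to 36.6 in sg/sg libraries, and at 186 to 284 in wild-type and 11.9 to 25.5 in peg/peg libraries, so every library matched its genotype label. It was the only gene called in either experiment by edgeR's quasi-likelihood test (adjusted p = 0.00226 in HDR, 0.0292 in PE2). Smooth muscle genes summed to 15168 to 51494 CPM over the 18 libraries, as the label aorta asks. The library peg/peg replicate 3 stood apart from the rest: its 5 adipocyte genes summed to 33.9 CPM, against 536 to 2505 in the other PE2 libraries, and its Cnn1, of smooth muscle, was at 6160 CPM, against 1106 to 2151. Of 5 skeletal muscle genes, Acta1 (756 CPM) and Ckm (300.4) were far above the other PE2 libraries, while Myh4 was at 0.988, Myh1 at 1.34 and Atp2a1 at 0.154 CPM, the last the lowest value of that gene in PE2. Its endothelial genes summed to 384 CPM, against 994 to 2517, and its fibroblast genes to 5698, against 723 to 2327. HDR libraries are named by the columns of their table (WT_2 to WT_6, Mut_2 to Mut_6), which give genotype and not sex.

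The genes are scattered over the genome (GRCm38, Gencode M21). Sox10 lies at chr15:79154908-79165240, Cdh19 at chr1:110888326-110977584, S100b at chr10:76253853-76261159, Pmp22 at chr11:63128982-63159547, Prx at chr7:27499324-27520214, Mag at chr7:30899176-30914873 and Ncmap at chr4:135369576-135398227. None shares exon bases with another gene on its own strand. Prx alone shares 300 exon bases with a gene on the opposite strand, Gm15541, and since the strand setting of the counting is not stated, reads of the pair cannot be told apart there.

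Promoter windows, 250 bases before to 50 after a start, were read from RefSeq (GRCm38.p6) for the 5 members it held, in 11 windows. Sox10, Cdh19 and Mbp were not among them. Each window was searched on both strands for ACAAAG, a hexamer of the kind SOX proteins bind, for the GC box GGGCGG and for the CArG box by name. ACAAAG was in 2 of 11 windows, both of Mag and overlapping, where the same hexamer lies on the opposite strand 67 bases before the first start. Of all 32851 windows, 18.7% hold it. The GC box was in 3 of 11 windows, of Pmp22 and Ncmap, against 35.7% of all windows. The CArG box, the element edited at Tspan2, was in 0 of 11, against 1.63% of all windows. A Mag window and 2 of the 4 Pmp22 windows are printed, because Mag passed the test for going with Sox10 over the HDR aortae and Pmp22 did not. Pmp22 is known to be read from alternative starts, one used by myelinating Schwann cells and others used in many tissues. Capitals mark the ACAAAG hexamer in Mag, printed as its complement, and the GC boxes in Pmp22, also as complements; the first Pmp22 window holds none of these motifs.
Mag, chr7:30914873-30915172, strand -: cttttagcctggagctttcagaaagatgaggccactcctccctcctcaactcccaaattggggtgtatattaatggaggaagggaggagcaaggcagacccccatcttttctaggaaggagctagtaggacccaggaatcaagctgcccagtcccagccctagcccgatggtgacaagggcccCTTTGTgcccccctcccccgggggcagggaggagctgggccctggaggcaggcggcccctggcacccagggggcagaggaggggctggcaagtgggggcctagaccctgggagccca
Pmp22 first start, chr11:63128732-63129031, strand +: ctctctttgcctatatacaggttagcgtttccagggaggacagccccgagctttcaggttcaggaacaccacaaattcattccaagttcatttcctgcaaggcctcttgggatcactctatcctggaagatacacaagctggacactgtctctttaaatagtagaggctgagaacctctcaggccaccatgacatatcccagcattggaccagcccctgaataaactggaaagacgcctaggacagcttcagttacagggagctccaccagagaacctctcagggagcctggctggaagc
Pmp22 next start, chr11:63131207-63131506, strand +: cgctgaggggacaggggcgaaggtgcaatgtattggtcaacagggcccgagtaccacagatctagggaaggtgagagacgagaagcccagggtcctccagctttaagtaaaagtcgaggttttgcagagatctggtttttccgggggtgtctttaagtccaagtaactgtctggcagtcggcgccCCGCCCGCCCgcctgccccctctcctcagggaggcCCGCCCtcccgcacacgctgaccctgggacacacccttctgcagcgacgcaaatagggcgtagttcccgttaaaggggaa
A match of letters is a description of the window and does not show a bound site.

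Per kilobase of annotated exon, Pmp22 was far above the other members in both experiments, at 64.0 ± 14.0 CPM per kb (SD, n = 10) in HDR and 136 ± 6.52 (n = 8) in PE2 aortae. S100b came next, at 6.95 ± 1.92 in HDR and 10.3 ± 3.41 in PE2. Cdh19 (2.28 ± 0.852), Prx (2.22 ± 0.510) and Mbp (2.17 ± 1.17) lay within each other's spread in HDR. In PE2 the order of these was Mbp at 5.13 ± 2.58, Prx at 2.65 ± 0.675, Cdh19 at 2.05 ± 1.45 and then Sox10 at 1.54 ± 0.891, and each of the 4 overlapped its neighbour. Sox10 was at 0.517 ± 0.220 in HDR. Ncmap and Mag were lowest in both, Ncmap at 0.277 ± 0.165 and 0.406 ± 0.328, Mag at 0.113 ± 0.101 and 0.239 ± 0.148 CPM per kb. Exon length here is the union over all transcripts, which lowers the value of a gene with many alternative exons such as Mbp.

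Sox10, the transcription factor that Schwann cells need at every stage of their life, was at 1.61, 1.42, 0.970, 2.32 and 2.28 CPM in HDR WT_2 to WT_6. In sg/sg Mut_2 to Mut_6 it was at 1.04, 1.40, 1.07, 2.80 and 0.851 CPM. The genotypes overlapped, with Mut_5 the highest and Mut_6 the lowest of all 10 libraries, and the log2 fold change was -0.25 (SE 0.37, 95% interval -1.05 to 0.54). In PE2, wild-type replicates 1 to 4 were at 2.57, 1.48, 3.38 and 5.96 CPM and peg/peg replicates 1 to 4 at 8.92, 7.76, 5.34 and 2.27. Here 2 peg/peg libraries lay above every wild-type library and the other two within the wild-type range. The log2 fold change was 0.86 (SE 0.52, 95% interval -0.34 to 2.06; edgeR adjusted p = 0.861).

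Cdh19, a cadherin of Schwann cells and their precursors, had values of 8.29, 9.40, 6.84, 13.0 and 15.1 CPM in HDR wild type. The sg/sg libraries stood at 5.29, 9.89, 11.1, 14.2 and 4.42 CPM, 2 of them below the lowest wild-type library and 3 within the wild-type range. In PE2 wild type Cdh19 was at 5.35, 2.03, 4.32 and 9.39 CPM, and in peg/peg at 16.3, 18.7, 10.9 and 3.05. A total of 3 peg/peg libraries were above the highest wild-type library and the fourth was below 3 of the 4. Its log2 fold change of 1.21 was the largest of any member (SE 0.60, 95% interval -0.18 to 2.61), from a mean of 5.27 ± 3.08 to 12.2 ± 6.95 CPM (SD, n = 4 each). It did not pass the test (edgeR, unadjusted p = 0.0788, adjusted p = 0.861), and it was 1.26 without peg/peg replicate 3. In HDR the log2 fold change was -0.23 (SE 0.32, 95% interval -0.93 to 0.48).

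Mbp (chr18:82475146-82585637) encodes myelin basic protein, which holds the inner faces of the myelin membrane together. In HDR wild type it was at 13.1, 20.6, 8.25, 21.4 and 39.8 CPM and in sg/sg at 13.5, 14.1, 16.3, 29.2 and 7.66. The span from lowest to highest library was 5.19-fold in HDR and 5.21-fold in PE2, wider than the difference between genotypes in either. PE2 wild-type libraries had 53.5, 14.1, 67.4 and 36.6 CPM, and peg/peg libraries 69.2, 55.8, 37.3 and 13.3. The log2 fold changes were -0.35 (SE 0.41) in HDR and 0.03 (SE 0.57) in PE2. Without WT_6, the wild-type library highest in Mbp, the HDR value was 0.03.

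Mag, an adhesion protein of the innermost myelin wrap facing the axon, rested on few reads. It had 1 to 33 counts per HDR library and passed the count filter only in PE2. In HDR wild type it was at 0.201, 0.378, 0.0882, 0.789 and 1.40 CPM and in sg/sg at 0.218, 0.241, 0.566, 0.654 and 0.0532, and the difference of -0.224 CPM gave p = 0.468 in an exact two-sided permutation test. In PE2 it was at 1.22, 0.250, 1.46 and 0.907 CPM in wild type and at 1.99, 1.14, 0.505 and 0.313 in peg/peg. The groups overlapped widely and the log2 fold change was 0.04 (SE 0.69).

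Ncmap encodes a protein of the uncompacted parts of myelin. It was low in every aorta, with 0.397 to 1.52 CPM in HDR wild type and 0.213 to 0.841 in sg/sg, on 4 to 36 counts per library. In PE2 wild type it was at 0.484, 0.451, 0.530 and 0.981 CPM and in peg/peg at 1.60, 0.611, 2.37 and 0.209. The highest of all 18 values and the lowest were thus both peg/peg, and the highest came from peg/peg replicate 3. The log2 fold change was 0.97 (SE 0.68, 95% interval -0.60 to 2.54) and 0.39 without that library. In HDR it was -0.51 (SE 0.46).

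Prx, or periaxin, ties the outer surface of the myelinating Schwann cell to its basal lamina. It lay between 8.20 and 16.8 CPM over the HDR and between 11.2 and 21.6 over the PE2 libraries. The log2 fold changes were 0.01 (SE 0.20) in HDR and -0.04 (SE 0.25) in PE2, with the 95% interval of the latter from -0.61 to 0.52.

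Pmp22, a membrane protein of compact myelin that is also made outside nerve, was the steadiest member. It ran from 102 to 195 CPM in HDR and from 296 to 346 CPM in PE2, a span of 1.91-fold and 1.17-fold. The spread within genotype (SD of log2 CPM) in PE2 was 0.07, which placed it at percentile 2.21 of the 16401 genes tested, whereas Mbp stood at percentile 94.2, Cdh19 at 93.8 and Sox10 at 88.8. In HDR the percentiles were 59.3 for Pmp22, 96.7 for Mbp, 91.3 for Cdh19 and 82.1 for Sox10, among 16423 genes. The log2 fold change of Pmp22 was -0.21 (SE 0.18) in HDR and 0.02 (SE 0.10) in PE2, where the 95% interval ran from -0.20 to 0.24.

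S100b encodes a calcium-binding protein used as a marker of Schwann cells, which fat cells and other cell types also make. It was at 10.4, 9.07, 10.3, 10.7 and 16.2 CPM in HDR wild type and at 9.06, 7.91, 12.6, 11.3 and 5.59 in sg/sg. In PE2 it was at 20.9, 16.1, 14.6 and 17.9 CPM in wild type and at 13.1, 21.7, 6.08 and 12.5 in peg/peg. Of the peg/peg libraries 3 lay below the whole wild-type range and 1 above it. The log2 fold changes were -0.29 (SE 0.23) and -0.38 (SE 0.34), and the PE2 value was -0.15 without peg/peg replicate 3.

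**Figure D1:**
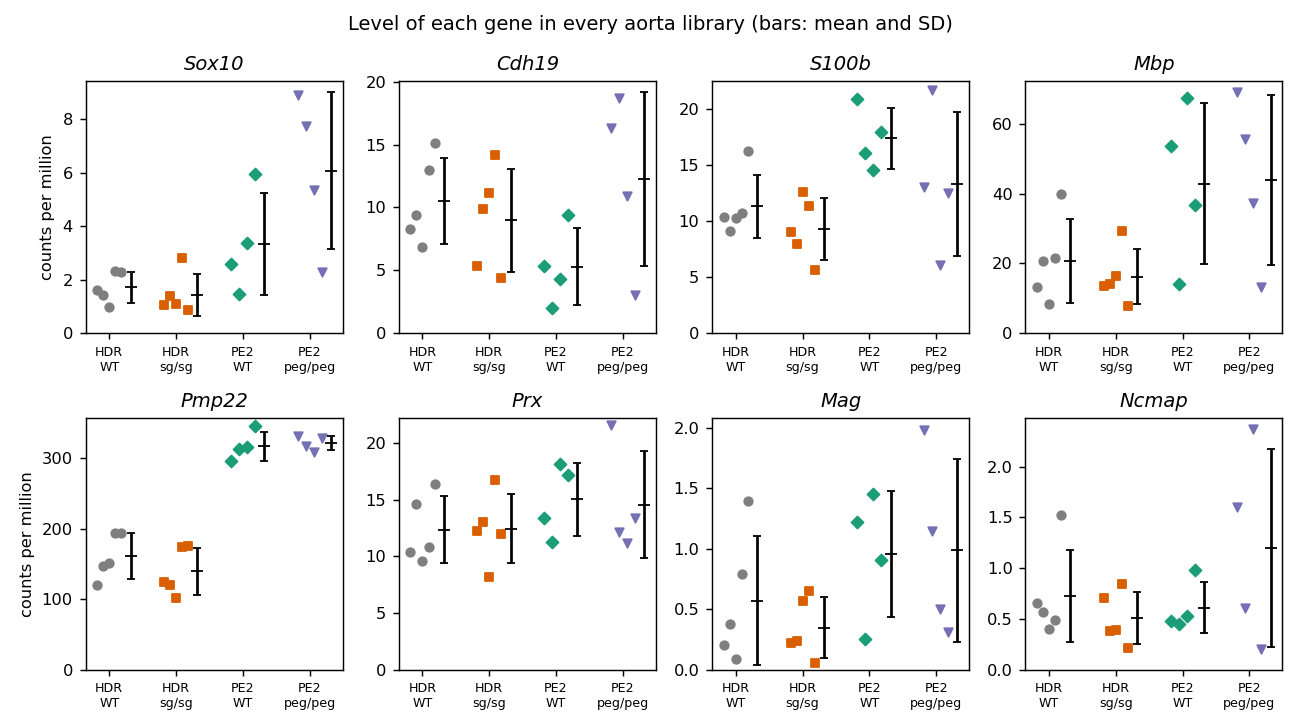
Levels in CPM (linear axis from 0) of each of the 8 genes in every library, by group, with the mean and SD of each group as black bars (n = 5, 5, 4 and 4). The groups overlap in all 8 genes of both experiments, and Pmp22 is tightly grouped in PE2 where Sox10, Cdh19, Mbp and Mag spread widely.

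The genotype question was answered with 1 fit across all genes in each experiment. None of the 8 genes was called in either: 0 of 7 tested in HDR and 0 of 8 in PE2 at an edgeR adjusted p under 0.05, beside a background of 0.00609% and 0.0061% of all genes tested, and none had an unadjusted p under 0.05, beside 1.98% and 4.3%. By DESeq2, limma-voom and each other setting tried, 0 members were called as well. In HDR 6 of 7 log2 fold changes were below 0, with a median of -0.25 against 0.003 for all genes tested, and in PE2 6 of 8 were above 0, with a median of 0.04 against 0.01. Of those 6, Pmp22, Mbp and Mag were at 0.02 to 0.04 and turned sign under other settings, and of all genes tested in PE2 8561 of 16401 were above 0. For all 8 members the genotypes overlapped in both experiments. The share of all genes tested that overlap was not computed, so this count only describes the members. The intervals were wide for the variable genes: in PE2, those of Cdh19, Sox10, Mbp, Mag and Ncmap all included a log2 fold change of 1, and so do not exclude a doubling.

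**Figure D2:**
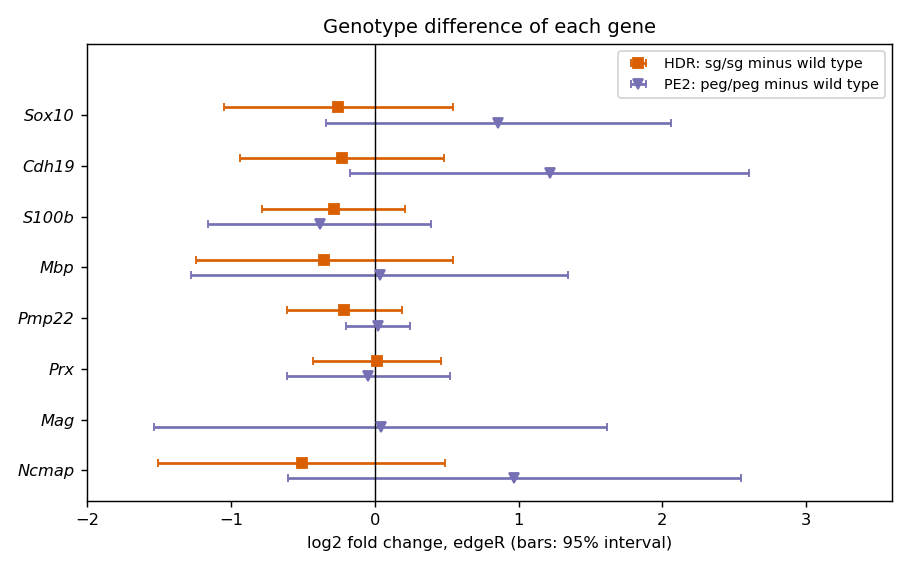
Log2 fold change of mutant over wild type for each gene (horizontal axis) from edgeR, with 95% intervals, in HDR (squares) and PE2 (triangles). Every interval includes 0; Mag has no HDR estimate because too few reads passed the filter, and the narrowest interval is that of Pmp22 in PE2.

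The difference between the experiments was tested as an interaction over all 18 libraries. None of the 8 members passed (0% of the 18094 genes tested did), and 1, Cdh19, had an unadjusted p under 0.05, beside 5.13% of all genes. The HDR effect minus the PE2 effect was -1.43 for Cdh19 (SE 0.66, unadjusted p = 0.0462, edgeR adjusted p = 0.954), -1.10 for Sox10 (SE 0.63) and -1.47 for Ncmap (SE 0.82). The experiments also differed in strain label, age, depth and the sex of the mutants, which cannot be told apart from the kind of edit.

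The next question was whether the members went up and down together from library to library. Each of the other 7 was compared with Sox10 across libraries on the log2(CPM + 0.5) scale, which made 14 relations. In HDR (n = 10, permutation test with 100000 resamples, adjusted over the 14), 3 members followed Sox10. They were Mbp (r = 0.85, adjusted p = 0.0129; rho = 0.83, adjusted p = 0.0235), Cdh19 (r = 0.84, adjusted p = 0.0130; rho = 0.83, adjusted p = 0.0235) and Mag (r = 0.77, adjusted p = 0.0321; rho = 0.79, adjusted p = 0.0307). With values centred on the genotype mean, r was 0.84, 0.83 and 0.76. Without Mut_5 and WT_5, the 2 libraries farthest from the median of Sox10, r was 0.86, 0.80 and 0.78, yet with 8 libraries left none kept an adjusted p under 0.05 (0.0583, 0.0584 and 0.0740). Mag also lost its call when WT_3, WT_4, WT_5, WT_6, Mut_2, Mut_3 or Mut_6 alone was left out, with adjusted p up to 0.0818. Ncmap (r = 0.67), Prx (r = 0.58), S100b (r = 0.58) and Pmp22 (r = 0.53) did not pass, with adjusted p of 0.0814 to 0.154 for r and 0.110 to 0.396 for rho. Ncmap gained a call without WT_5 (r = 0.77, adjusted p = 0.0443) and without Mut_2 (r = 0.75, adjusted p = 0.0443), and had r = 0.84 without the 2 farthest libraries.

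In PE2 (n = 8, exact permutation test), 1 member followed Sox10, namely Cdh19 (r = 0.97, p = 0.000446, adjusted p = 0.00625; rho = 0.93, adjusted p = 0.0235). Its r was 0.96 on genotype-centred values and 0.95 without wild-type replicate 2 and peg/peg replicate 1, the libraries farthest from the median (adjusted p = 0.0583). Mbp (r = 0.69), Ncmap (r = 0.67) and Mag (r = 0.65) did not pass, nor did Prx (r = 0.44) or Pmp22 (r = 0.41), and S100b stood at r = -0.08. The adjusted p of these 6 was 0.127 to 0.867 for r and 0.0610 to 0.793 for rho. Cdh19 had 5.05 to 10.4 counts per Sox10 count in HDR and 1.28 to 2.41 in PE2.

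**Figure D3:**
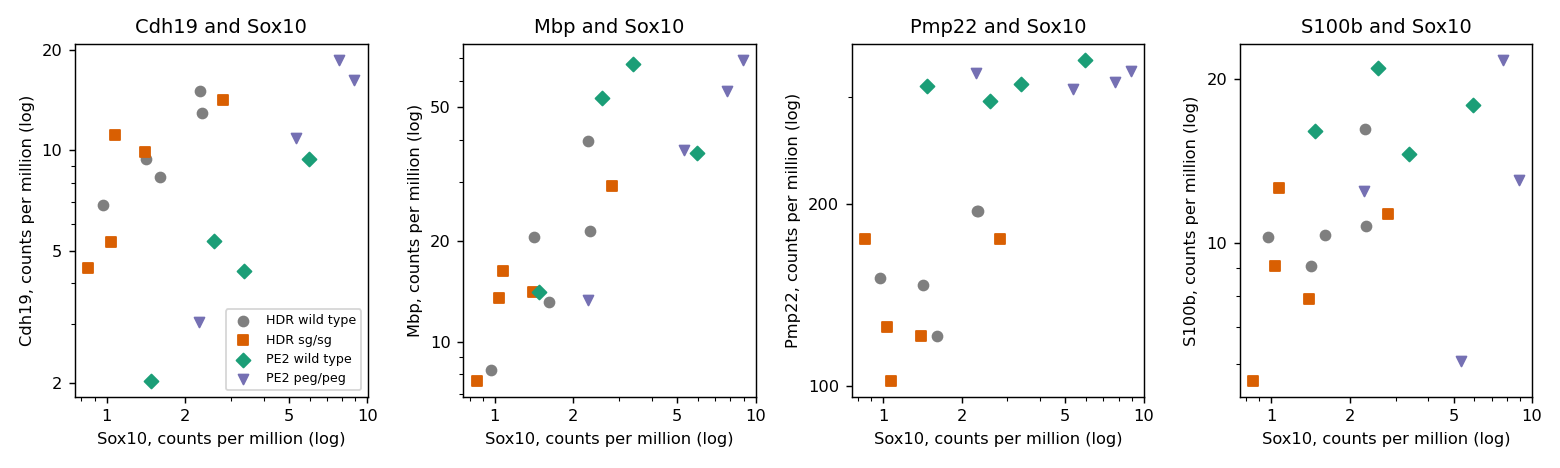
Cdh19, Mbp, Pmp22 and S100b (vertical axes) against Sox10 (horizontal axes), in CPM on log axes, 1 point per library. Cdh19 goes up with Sox10 in both experiments (r = 0.84 and 0.97) on separate lines, and Pmp22 is nearly flat in PE2.

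The wild-type PE2 replicates 1 and 3 departed from the others in Mbp relative to Sox10. They had 20.8 and 20.0 Mbp counts per Sox10 count, and the other 6 PE2 libraries had 5.86 to 9.53. The same 2 libraries held 12.9 and 14.8 CPM of Mobp, a myelin protein gene of oligodendrocytes, the myelinating glia of the brain and spinal cord, against 0.0245 to 4.74 in the other 6 and at most 0.339 in HDR. Of the 5 oligodendrocyte genes followed (Mobp, Olig1, Mog, Opalin, Olig2) all had reads in these 2 libraries, with Mog at 0.178 and 0.662 CPM. Olig1 did not single them out. It was at 1.27 and 0.706 CPM there, at 0.952 in wild-type replicate 2 and at 0.834 in peg/peg replicate 4. The 5 genes summed to 0.466 to 16.5 CPM in PE2 wild type and 0.916 to 4.77 in peg/peg, and Mobp made up most of the highest sums. When wild-type replicates 1 and 3 were left out, a choice made after their values were seen, r with Sox10 in PE2 was 0.98 for Mbp, 0.90 for Mag and 0.99 for Cdh19 (n = 6). Since the 2 libraries were singled out by their Mbp relative to Sox10, these values are a description and no p is given. Without the 2 libraries farthest from the median of Sox10, r was 0.39 for Mbp and 0.21 for Mag. Without wild-type replicates 1 and 3 the log2 fold change of Mbp was 0.79 and that of Mag 0.77, against 0.03 and 0.04 with them, and neither was called. The part of oligodendrocyte transcripts in the Mbp level was not tested further.

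Transcripts of some neurone genes, Th, Dbh and Npy among them, were present in some aortae and nearly absent in others. Other neurone genes did not follow this pattern. Uchl1 (12.8 to 66.6 CPM) and Stmn2 (6.85 to 67.8 CPM) had reads in every library, and in HDR Uchl1 was highest in Mut_6 (27.5 CPM). Snap25 was at 6.78 and 5.45 CPM in PE2 wild-type replicates 1 and 3. Th, tyrosine hydroxylase, which makes the precursor of noradrenaline, was at 27.3 CPM in wild-type replicate 4 and at 32.8 and 50.9 in peg/peg replicates 1 and 2, and at 0 to 0.521 in the other 5 PE2 libraries. Dbh, which makes noradrenaline, was at 44.9, 60.0 and 74.6 CPM in the same 3 libraries and Npy, a peptide of sympathetic neurones, at 34.5, 30.2 and 77.0. In HDR, Th was at 6.51 CPM in WT_5, 1.98 in Mut_4, 1.73 in Mut_5 and 0 to 0.338 in the other 7. These mRNAs sit mainly in neurone cell bodies. The 3 PE2 libraries with Th were also the 3 with the most Sox10 (5.96, 8.92 and 7.76 CPM), while of the 3 HDR libraries WT_5 and Mut_5 were high in Sox10 and Mut_4 (1.07 CPM) was not. HDR WT_6 had Th at 0 CPM and yet Sox10 at 2.28 CPM, close to the 2.32 of WT_5. Since the libraries fall into separate clusters by Th, no correlation with it is given. Leaving out the 3 libraries above 1 CPM of Th in each experiment, a choice made after their values were seen, gave log2 fold changes in PE2 of 0.82 for Cdh19, 0.60 for Sox10, -0.85 for Mbp and -1.26 for Mag. In HDR it gave -0.60 for Cdh19, -0.52 for Sox10 and -0.80 for Mbp, and no member was called in either. Without those libraries r with Sox10 in HDR was 0.90 for Mbp, 0.93 for Cdh19 and 0.88 for Mag (n = 7). The libraries left out were WT_5 and Mut_5, the farthest from the median of Sox10, and Mut_4, the HDR library with the most Cdh19 counts per Sox10 count (10.4). These values are therefore a description and no p is given.

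**Figure D4:**
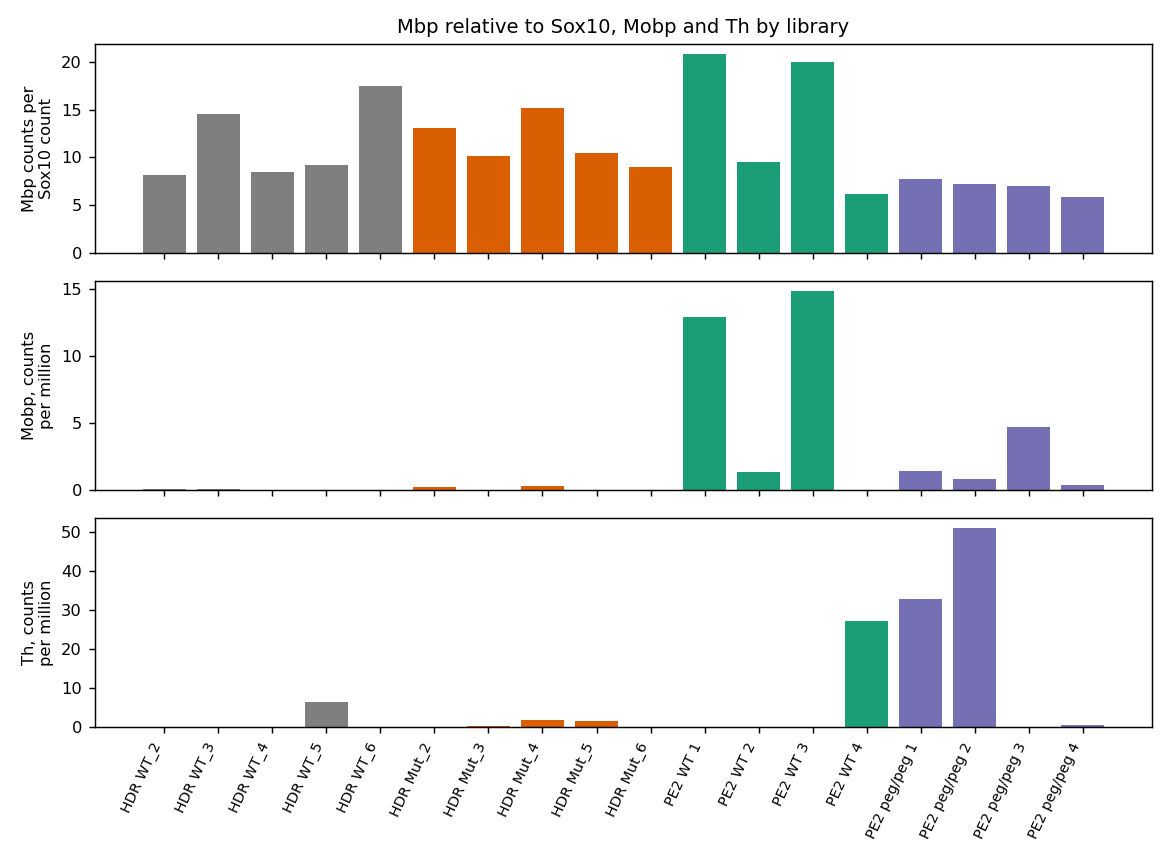
Mbp counts per Sox10 count (top), Mobp (middle) and Th (bottom), both in CPM, for each of the 18 libraries, coloured by group. Mbp per Sox10 and Mobp are both highest in PE2 wild-type replicates 1 and 3, and Th is high in PE2 wild-type replicate 4 and peg/peg replicates 1 and 2.

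S100b was the member least tied to Sox10 in PE2, and its level was set beside that of fat. The sum of 5 adipocyte genes (Ucp1, Cidea, Adipoq, Plin1 and Cidec) ran from 296 to 1980 CPM in HDR and from 33.9 to 2505 in PE2, and none of the 5 genes was at 0 in any library. S100b was lowest in the library with the least of these genes in each experiment, Mut_6 (5.59 CPM) and peg/peg replicate 3 (6.08 CPM). Over the libraries, r with the sum was 0.83 in HDR (n = 10, permutation test, p = 0.00246, adjusted over 16 relations p = 0.0394; rho = 0.70, adjusted p = 0.294). It was 0.92 in PE2 (n = 8, exact permutation test, p = 0.00749, adjusted p = 0.0599; rho = 0.76, adjusted p = 0.294). This comparison was added after the values were seen. The PE2 value rests on peg/peg replicates 3 and 1, without which r was 0.53 (exact permutation p = 0.304), and without WT_6 and Mut_4 the HDR value was 0.66 (exact permutation p = 0.0768). In HDR the adjusted p was also over 0.05 without WT_2, WT_3, WT_4, WT_5, WT_6, Mut_2, Mut_4 or Mut_6 alone, at 0.0510 to 0.147, with r of 0.75 to 0.85. Left out singly in PE2, the 3rd peg/peg library gave r = 0.65 and the 4th r = 0.96, the latter with an adjusted p of 0.0492. No other member reached an adjusted p under 0.05 with the sum in either experiment. S100b was not alone in going up with it in HDR, where r was 0.71 for Mag, 0.62 for Cdh19, 0.54 for Mbp, 0.52 for Ncmap and 0.36 for Sox10. Pmp22 (-0.12) and Prx (-0.22) were below 0 there. In PE2 r of the other members ran from -0.76 (Ncmap) to 0.21 (Pmp22), with Sox10 at -0.29. In both experiments all 5 adipocyte genes had log2 fold changes below 0 in the mutants, as S100b did, with medians of -0.44 and -0.72 and 0 called. Fat was not alone in this pattern in PE2. There the endothelial genes also summed lowest in peg/peg replicate 3 (384 CPM). They summed highest in peg/peg replicate 2 (2517 CPM), where S100b was highest (21.7 CPM). In HDR their lowest sum was in WT_5 (699 CPM) and not in Mut_6 (817 CPM). The relation of S100b with endothelial genes was not tested.

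**Figure D5:**
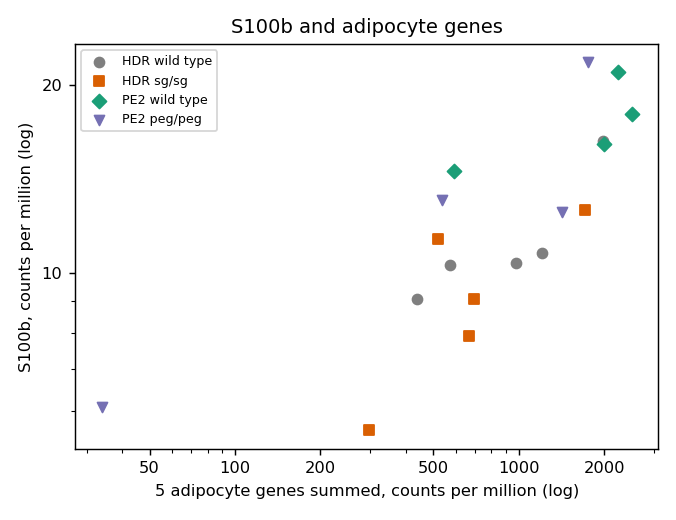
S100b (vertical axis) against the sum of 5 adipocyte genes (horizontal axis), both in CPM on log axes, 1 point per library. S100b is lowest at the left, in peg/peg replicate 3 (33.9 CPM of adipocyte genes) and HDR Mut_6 (296 CPM).

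Other genes of the myelinating Schwann cell were read in the same fits. Of 14, 10 were tested in HDR, with 3 log2 fold changes above 0 and 7 below and a median of -0.09, and 13 in PE2, with 11 above 0 and 2 below and a median of 0.64. None was called. The 3 fibroblast genes followed, Dcn, Lum and Pdgfra, were also above 0 in PE2, with a median of 0.94 and none called, and their part in these values was not tested. The 4 most abundant were Cnp, an enzyme of myelin membranes, Gldn, which gathers sodium channels at nodes, Mal, a raft protein of myelin, and Dhh, the signal by which Schwann cells organise the perineurium. Cnp had log2 fold changes of -0.15 (SE 0.19) in HDR and 0.64 (SE 0.28) in PE2, Gldn 0.04 (SE 0.18) and -0.28 (SE 0.87), and Dhh 0.13 (SE 0.20) and -0.17 (SE 0.62). In peg/peg replicate 3 Gldn was at 0.395 CPM and Dhh at 2.75. The other PE2 libraries had 7.87 to 25.6 CPM of Gldn and 14.9 to 37.6 of Dhh. Mal reached 2.41 (SE 0.78) in PE2, and its level was 116 CPM in peg/peg replicate 3 against 5.51 to 20.2 in the other 7 PE2 libraries. Fa2h, which makes the hydroxylated fatty acids of myelin lipids, was likewise at 8.32 CPM there and at most 0.848 elsewhere in PE2. Mal, Fa2h and Egr2, the transcription factor that starts myelination (log2 fold change 1.13, SE 0.47), were the 3 of 13 with an unadjusted p under 0.05 in PE2, beside 4.3% of all genes tested, and their edgeR adjusted p was 0.861. Mal and Fa2h are also made by epithelia and other tissues, and Fa2h and Egr2 are named here after their values were seen.

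Of 12 further genes of the Schwann cell lineage, 8 were tested in HDR, 6 of them below 0 (median -0.20), and 11 in PE2, 9 of them above 0 (median 0.85), with none called. Of all genes tested, 8058 of 16423 were below 0 in HDR and 8561 of 16401 above 0 in PE2. In PE2 2 of the 11 had an unadjusted p under 0.05 by edgeR, beside 4.3% of all genes tested. They were Foxd3 with a log2 fold change of 1.42 (SE 0.51) and Gfap with -1.09 (SE 0.47), both named after their values were seen. Gfap was highest in PE2 wild-type replicates 1 and 3 (1.35 and 2.27 CPM), the libraries also highest in Mobp. It was at 0.391 to 0.848 CPM in the other PE2 libraries. The part of those replicates in its fold change was not tested. Ncam1, a cell adhesion molecule also made by smooth muscle, was at 292 to 622 CPM in HDR and 167 to 357 in PE2, apart from 38.1 CPM in peg/peg replicate 3. Scn7a, a sodium channel of non-myelinating Schwann cells, had log2 fold changes of -0.11 (SE 0.17) in HDR and 0.98 (SE 0.45) in PE2. L1cam, an adhesion molecule of axons and non-myelinating Schwann cells, had 0.23 (SE 0.22) and 0.77 (SE 0.44), and Lgi4, a secreted protein needed for myelination, had -0.47 (SE 0.23) and 0.55 (SE 0.31). Of the 11 genes of neurones and axons, 4 were tested in HDR and 10 in PE2, where all 10 were above 0 with a median of 1.17 and none was called. The most abundant were Uchl1, a ubiquitin hydrolase of neurones, with log2 fold changes of -0.09 (SE 0.22) in HDR and 0.20 (SE 0.30) in PE2, and Stmn2, a tubulin-binding protein of growing axons, with 0.32 (SE 0.18) and 0.11 (SE 0.57). Npy and Th, present in some libraries and nearly absent in others, had PE2 values of 1.60 (SE 2.14) and 1.62 (SE 2.24).

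The genes most like the 8 as a set were sought among the 14754 others tested in both experiments. Each library received a score, the mean over the tested members of their standardised log2 levels, and genes were ranked by the lower of their 2 correlations with it. Among the first 10 were Gjc3 (lower r = 0.91), Kcna1 (0.91), Plxnb3 (0.89), Gnal (0.85), Rasgef1c (0.84), Sfrp5 (0.84), Slc35f1 (0.84) and Cadm4 (0.83). Cnp, Dhh, Mal and Gldn, the most abundant of the other myelinating Schwann cell genes, had a lower r of 0.69, 0.39, 0.24 and -0.25. These are descriptions over 10 and 8 libraries that share their libraries and depth with the members. Gjc3 encodes a connexin of myelinating glia. Kcna1, a potassium channel gene, was among the further genes of the Schwann cell lineage read above.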

How the data were processed

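Poly(A) RNA of 18 single mouse aortae was sequenced. The values are raw counts by gene symbol, deposited by the authors in 1 table per experiment and made with fastp, STAR 2.7.0f on GRCm38 with Gencode M22, and featureCounts of Subread 1.6.4. Library kit and read length are given differently by the labels and by the methods, and the strand setting is not stated. The deposited normalized tables were not used, and 0 columns of the count tables were left out. HDR columns were matched to genotype groups only, PE2 columns to single samples.

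From the counts, edgeR 4.0.16 (TMM, filterByExpr, glmQLFit, glmQLFTest) in R 4.3.3 fitted HDR and PE2 separately, without a covariate, and all 18 libraries together for the interaction. Adjusted p is Benjamini-Hochberg over all genes tested, with a threshold of 0.05. The fits were tested on simulated data with large changes in well-counted genes of low spread. That test does not cover smaller changes in genes as variable or as sparse as some members. Intervals of fold changes use edgeR's total degrees of freedom. DESeq2 1.42.0, which the authors used in version 1.22.1, and limma 3.58.1 (voom) were alternatives, beside other filters, scalings and libraries left out. Correlations used log2(CPM + 0.5), with exact permutation below 10 libraries and 100000 resamples for 10. Python 3.11.15 with scipy 1.17.1 was used. Counts of any 2 libraries of a group differed beyond sampling noise (chi-square over degrees of freedom at least 15.6), so none was a repeat of another. Nothing says which aortae came from which litter, and p-values measure the spread between these mice. Exon lengths came from Gencode M21, 1 release before the authors' annotation.

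Members and gene lists were chosen with earlier results of these data known. Named genes are the 8 members, Tspan2, the 4 most abundant of each list and any called gene of it, and the first 10 by likeness to the members, of which 2 are not reported here; others are named after their values were seen.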

Additional observations from a re-analysis of the deposited data

Results flagged for a closer look

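Dixon's ratio, the gap of the highest or lowest library to its nearest neighbour over the range of its group, was taken for each of the 8 genes in each of the 4 groups, 32 in all, against its 95% critical value. Chance passes this limit in about 1 of 20 groups. A library stood alone in 4 of them, each time on the high side. HDR wild-type WT_6 was alone in S100b, at 16.2 CPM with the next at 10.7 (ratio 0.767), and in Ncmap, at 1.52 CPM with the next at 0.653 (ratio 0.772). It was also the HDR library with the most adipocyte transcripts and the highest Mbp, Mag and Cdh19. HDR sg/sg Mut_5 was alone in Sox10, at 2.80 CPM with the next at 1.40 (ratio 0.720). PE2 wild-type replicate 4, the male library of that group and one of the 3 PE2 libraries with Th above 1 CPM, was alone in Ncmap, at 0.981 CPM with the next at 0.530 (ratio 0.851). The part of sex, fat or neurone transcripts in these values was not tested.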

How the results depend on the processing

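No setting called a member in either experiment or in the interaction. Of the recomputed fold changes, 32 turned their direction, all of genes that no setting called, and the others kept it. Medians of the members were judged by the spread of the mutant libraries and not by direction. Together 332 fold changes and medians were the same by these rules, and 1 median moved. With single libraries left out, the log2 fold change of Mbp ran from -0.68 to 0.032 in HDR and from -0.28 to 0.33 in PE2, that of Prx from -0.12 to 0.14 in HDR and from -0.30 to 0.054 in PE2, and in PE2 that of Mag from -0.56 to 0.32 and that of Pmp22 from -0.022 to 0.057. The median of the members in PE2 was 0.72 without the 2 libraries above 10 CPM of Mobp. Without these 2, Pmp22 was at -0.034 and Prx at 0.030. Without the 3 libraries above 1 CPM of Th, Prx was at -0.035 in HDR, and Mbp at -0.85 and Mag at -1.26 in PE2. These exclusions were chosen after seeing the data. In PE2, sex as a covariate gave -0.035 for Mbp and 0.027 for Prx, and female libraries alone gave -0.044 and 0.021. With limma-voom Mag was at -0.059. With the replicate number as a block, Mbp was at -0.024 and Mag at -0.079, and 0 members were called. The numbers are not known to pair the PE2 aortae. Deviations of same-numbered libraries correlated at -0.25 to -0.04 over all genes. Such correlations cannot decide whether same-numbered mice were littermates or handled together. No paired analysis was possible in HDR because its columns carry no replicate number of the labels.

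The count of members following Sox10 was 0 in both experiments without the 2 farthest libraries, 2 in HDR on the linear scale and 3 in PE2 without the libraries with Mobp, which were chosen by their Mbp per Sox10, so that this count carries no weight. With single libraries left out it was 2 to 3 in HDR and 1 in PE2. In PE2, r of S100b with Sox10 turned to 0.0094 on the linear scale, 0.20 on values centred on genotype, 0.032 without the 2 farthest libraries and 0.040 without those with Mobp, and its leave-one-out values lay between -0.31 and 0.14. That of Prx with Sox10 was -0.17 without the 2 farthest. For S100b and the adipocyte genes, the leave-one-out r lay between 0.745 and 0.901 in HDR and between 0.651 and 0.963 in PE2. It lost its call in HDR without the 2 farthest libraries (0.664) and without those with Th (0.907), and gained one in PE2 centred on genotype (0.899). The cause was not tested. Depth limits Mag and Ncmap most.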
